A study of Mus musculus with 6 samples.

Results

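The smooth muscle contractile genes examined here were 10 of the 19938 mouse genes that had an entry of their own on the arrays: Acta2, Actg2, Myh11, Myl9, Tagln, Cnn1, Cnn2, Tpm1, Tpm2 and Lmod1. They were taken by name from the platform annotation, and each of the 10 had 1 transcript cluster, the Affymetrix probe set that summarises a gene, so no choice between entries was needed. Values were log2 of the deposited linear intensity throughout. Levels are compared between arrays for 1 gene at a time and not between genes.

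The series measured total RNA from lymph node (LN) stromal cells and embryonic fibroblasts on 6 single-colour arrays. Mouse embryonic fibroblasts (MEF) were cultured from mid-gestation (E11.5-13.5) C57BL/6JJcl embryos (1 array), and LN stroma was the CD45- CD31- podoplanin+ VCAM-1+ fraction sorted directly from digested LN of adult C57BL/6JJcl mice (1 array). BLS4 and BLS12 are established stromal lines from LN of BALB/cA mice, each measured unstimulated and after 2 days with 1 µg/ml of a goat polyclonal agonistic antibody to the receptor of lymphotoxin, LTβR (4 arrays). MEF and the lines were grown in the same serum-containing medium, whereas LN stroma was never cultured. A line is a single established culture, and the labels name no control antibody. Age, tissue and culture differ together between MEF and LN stroma, and the lines differ from both in strain and in being established, so these factors cannot be told apart. Nothing in the labels gives separate cultures or animals for the arrays. The p-values measure only the gap between the 2 lines in their antibody difference, moderated by a spread pooled over all tested genes. That gap may be technical in part, and no spread between repeat arrays of 1 condition enters it. In bulk RNA, fewer cells of a type and less RNA per cell cannot be told apart.

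Smooth muscle cells, pericytes and activated fibroblasts contract by sliding actin against myosin. Alpha- and gamma-smooth muscle actin (Acta2, Actg2) form thin filaments, leiomodin (Lmod1) starts new ones, and tropomyosins (Tpm1, Tpm2), calponins (Cnn1, Cnn2) and transgelin (Tagln, also called SM22) lie along them. Myosin heavy chain 11 (Myh11) is the smooth muscle motor, and the regulatory light chain (Myl9) switches the motor on when it is phosphorylated. Many of these genes are controlled by serum response factor with its cofactors of the myocardin family, through a DNA element named the CArG box. In LN, reticular fibroblasts use actomyosin contraction to hold the tension of the conduit network. LTβR is the receptor through which lymphocytes drive the maturation of that stroma.

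The arrays were comparable in brightness, with array medians of 5.69 to 5.82 log2 units. In LN stroma the genes that define the sort were bright, with Pdpn (podoplanin) at 10.2 and Vcam1 at 11.9, and Ptprc (CD45) lay at 5.70, below the median of that array, 5.80. Pecam1 (CD31) lay at 6.44 there, above that median and above the 4.73 to 5.08 of the other arrays. Among 8 endothelial markers, 6 reached the array median in LN stroma and 1 to 3 on the other arrays. Their summed intensity was 733 in LN stroma, 568 in MEF and 296 to 322 in the lines. The part of endothelial cells in the LN stroma levels was not tested. Of 7 lymphocyte markers with an entry, 0 reached the array median in LN stroma. Cxcl13 and Ccl19, chemokines of LN reticular cells, lay at 12.8 and 12.5 in LN stroma and at 4.64 to 6.39 on the other 5 arrays, the lines included.

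Promoter windows were looked at because several of the genes are textbook CArG box targets. RefSeq (GRCm38.p6) gave the 250 bases before the start of 7 of the 10 genes. Tagln, Myh11 and Actg2 are named only. Acta2, Cnn2 and Myl9 are shown since they hold a match, Cnn1 since it is the gene that passed the antibody test, and Tpm1 since it lay higher with antibody in both lines. Capitals mark a CArG box, or one in which 1 of the 6 central letters is C or G.
Acta2, chr19:34255374-34255623, minus strand: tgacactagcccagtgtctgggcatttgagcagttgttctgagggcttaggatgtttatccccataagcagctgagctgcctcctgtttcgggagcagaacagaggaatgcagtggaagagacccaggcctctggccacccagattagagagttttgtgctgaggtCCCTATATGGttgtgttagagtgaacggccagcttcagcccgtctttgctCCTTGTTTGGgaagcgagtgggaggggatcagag
Cnn1, chr9:22099003-22099252, plus strand: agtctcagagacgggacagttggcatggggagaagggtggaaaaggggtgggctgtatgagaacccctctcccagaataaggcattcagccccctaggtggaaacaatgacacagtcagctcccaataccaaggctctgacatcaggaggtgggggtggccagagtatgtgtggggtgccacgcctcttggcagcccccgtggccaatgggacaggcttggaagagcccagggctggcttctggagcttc
Cnn2, chr10:79988350-79988599, plus strand: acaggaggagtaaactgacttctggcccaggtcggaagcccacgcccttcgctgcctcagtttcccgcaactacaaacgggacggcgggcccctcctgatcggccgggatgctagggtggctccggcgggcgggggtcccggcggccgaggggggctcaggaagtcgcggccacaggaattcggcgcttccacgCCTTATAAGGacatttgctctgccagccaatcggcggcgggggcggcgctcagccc
Myl9, chr2:156775214-156775463, plus strand: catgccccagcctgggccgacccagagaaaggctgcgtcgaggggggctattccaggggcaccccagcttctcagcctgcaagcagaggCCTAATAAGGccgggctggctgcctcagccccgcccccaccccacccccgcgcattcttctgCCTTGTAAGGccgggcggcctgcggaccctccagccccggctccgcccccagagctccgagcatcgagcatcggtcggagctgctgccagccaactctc
Tpm1, chr9:67049214-67049463, minus strand: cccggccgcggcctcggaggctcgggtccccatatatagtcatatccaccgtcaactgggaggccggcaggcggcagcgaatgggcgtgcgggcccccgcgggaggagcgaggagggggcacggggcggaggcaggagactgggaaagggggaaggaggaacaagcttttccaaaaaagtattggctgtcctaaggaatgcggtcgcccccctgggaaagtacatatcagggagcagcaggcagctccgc
The exact CArG box was found in the windows of Cnn2, as CCTTATAAGG starting 56 bases before the gene start, and of Myl9, as CCTAATAAGG starting 161 bases before it. It occurs in 1.47% of all 32851 RefSeq windows of this length. The form with 1 changed letter was found in Acta2 (CCCTATATGG and CCTTGTTTGG, starting 84 and 34 bases before the gene start) and in Myl9 (CCTTGTAAGG, 99 bases before), and occurs in 7.24% of all windows. The CArG pattern is the same on both strands. CATTCC, the core of the element bound by TEAD factors, was searched on both strands and found in Acta2, Tpm1 and Lmod1, against 12.6% of all windows, with no overlap with the CArG matches. A match describes letters only, and no match in the window of Cnn1 says only that these letters are not in it.

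**Figure D1:**
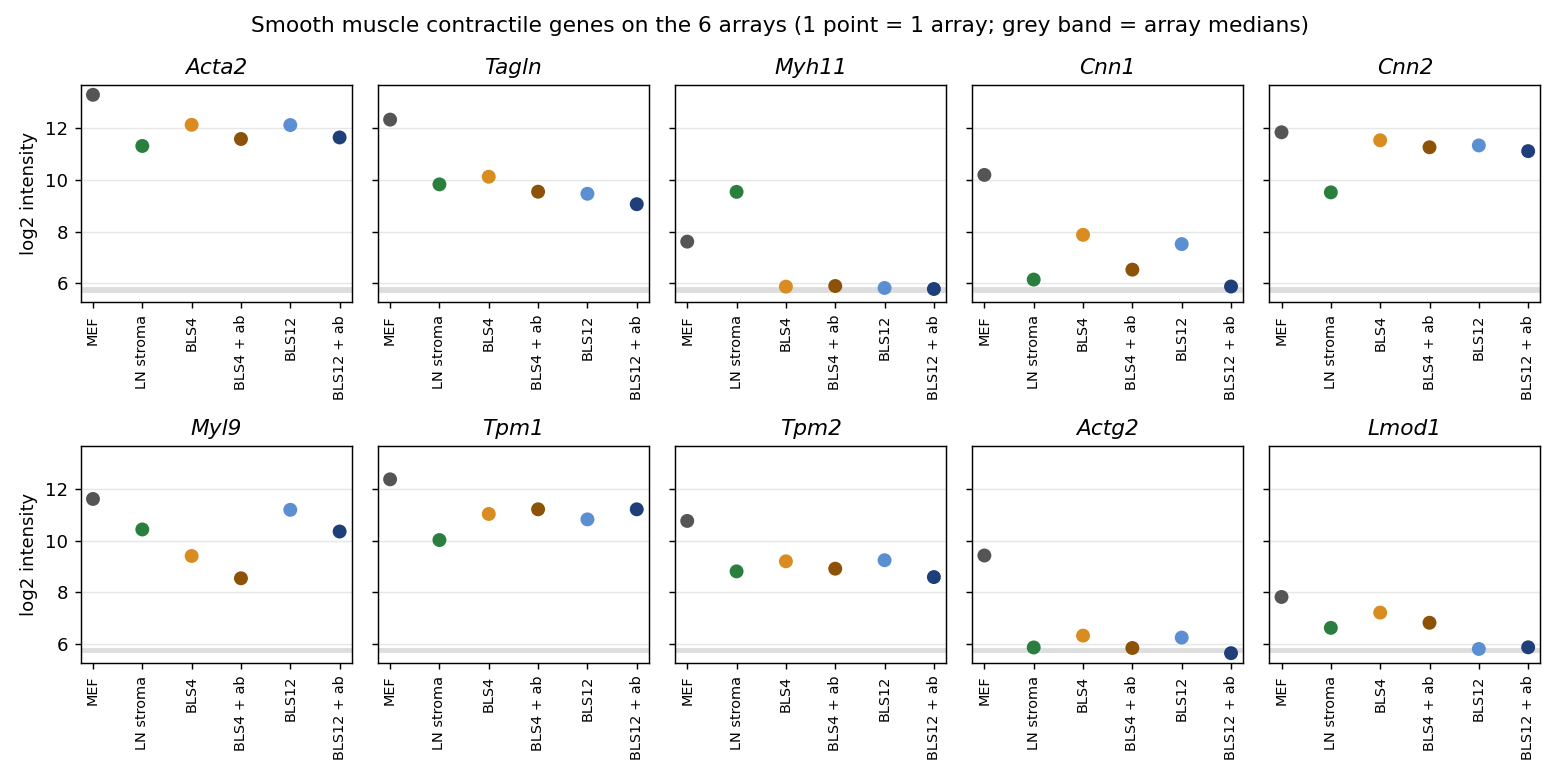
Log2 intensity of the 10 genes on the 6 arrays, 1 panel per gene and 1 point per array, with the range of the array medians as a grey band; "ab" is the LTβR antibody. MEF is the highest array in 9 panels and LN stroma in that of Myh11, where the 4 line arrays lie between 5.78 and 5.90, at the band.

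The actins were highest in MEF. Acta2 (transcript cluster 10467124) was at 13.3 in MEF, 11.32 in LN stroma, 12.14 in BLS4, 11.59 in BLS4 with antibody, 12.13 in BLS12 and 11.65 in BLS12 with antibody. Every array was thus far above the array medians, the lines without antibody lay within 0.01 of each other, and both antibody arrays lay between LN stroma and the unstimulated lines. Actg2 (10545707), the actin of gut and bladder muscle, was at 9.43 in MEF and at 5.87, 6.33, 5.85, 6.26 and 5.65 in LN stroma, BLS4, BLS4 with antibody, BLS12 and BLS12 with antibody. Outside MEF it stayed close to the array medians, and as no detection call was used, the size of its differences there is approximate.

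Of the myosin genes, Myh11 was highest in LN stroma and Myl9 in MEF. Myh11 (10437885) was at 7.62 in MEF, 9.54 in LN stroma and 5.87, 5.90, 5.82 and 5.78 in BLS4, BLS4 with antibody, BLS12 and BLS12 with antibody. In linear intensity this is 196 in MEF, 746 in LN stroma and 55.1 to 59.7 in the lines, and no order can be read among the line arrays. Myl9 (10477920) was at 11.62 in MEF, 10.44 in LN stroma, 9.41 in BLS4, 8.55 in BLS4 with antibody, 11.20 in BLS12 and 10.36 in BLS12 with antibody. For this light chain BLS12 stood next to MEF, LN stroma next to antibody-treated BLS12, and BLS4 below all of them.

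Among the thin filament proteins, Cnn1 (10583809) had the widest range of the 10 genes, 4.32 log2 units. It was at 10.2 in MEF, 6.15 in LN stroma, 7.88 in BLS4, 6.53 in BLS4 with antibody, 7.52 in BLS12 and 5.88 in BLS12 with antibody. LN stroma thus lay between the antibody arrays of the lines, and all 3 lay below both unstimulated lines. Its paralogue Cnn2 (10364593), the calponin of non-muscle cells, was at 11.85 in MEF, 9.52 in LN stroma and 11.54, 11.27, 11.34 and 11.12 in BLS4, BLS4 with antibody, BLS12 and BLS12 with antibody, so that the fresh cells stood apart from the 5 cultured arrays. Tagln (10593123) was at 12.34 in MEF, 9.83 in LN stroma, 10.13 in BLS4, 9.55 in BLS4 with antibody, 9.47 in BLS12 and 9.07 in BLS12 with antibody, and LN stroma lay inside the range of the lines.

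Tropomyosins coil along actin and gate the access of myosin. Tpm1 (10594661) was at 12.38 in MEF, 10.03 in LN stroma, 11.04 in BLS4, 11.22 in BLS4 with antibody, 10.83 in BLS12 and 11.22 in BLS12 with antibody, with LN stroma lowest. Tpm2 (10512499) was at 10.77 in MEF, 8.82 in LN stroma, 9.21 in BLS4, 8.92 in BLS4 with antibody, 9.25 in BLS12 and 8.60 in BLS12 with antibody, with LN stroma inside the range of the lines. Lmod1 (10350123) was at 7.83 in MEF, 6.63 in LN stroma, 7.22 in BLS4, 6.83 in BLS4 with antibody, 5.81 in BLS12 and 5.88 in BLS12 with antibody, and both BLS12 arrays lay within 0.13 of their medians. The spread of a single array in the model of the lines was 0.137 to 0.168 log2 units for the 10 genes, and neighbouring arrays closer than that are not ordered.

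The antibody comparison asked which contractile transcripts changed when LTβR was engaged, with each line as its own control. Cnn1 fell, by 1.49 log2 units or 2.82-fold (SE 0.150, adjusted p = 0.0445, limma). The fall was 2.54-fold in BLS4 and 3.12-fold in BLS12. In BLS12 with antibody Cnn1 lay at 5.88, near the median of that array, 5.82, so the size of that fall is approximate. Cnn1 was the 1 of 10 genes that passed lower with antibody, against 0.0751% of the 11988 genes tested, and 0 of 10 passed higher, against 0.2% of all. It was also the 1 gene at least 2-fold lower in both lines, where the share over all genes was 0.234%, and 0 were at least 2-fold higher, against 0.434%. The call of Cnn1 was lost after quantile normalization (adjusted p = 0.0856), where its antibody differences were -1.37 in BLS4 and -1.66 in BLS12.

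The other 9 genes did not pass. Myl9 had nearly the same difference in both lines, -0.86 in BLS4 and -0.84 in BLS12, with an estimate of -0.85 (SE 0.137, adjusted p = 0.0948). Actg2 differed by -0.54 (95% interval -0.89 to -0.19), Acta2 by -0.51 (-0.85 to -0.17), Tagln by -0.49 (-0.85 to -0.14) and Tpm2 by -0.47 (-0.86 to -0.08), with adjusted p of 0.233, 0.254, 0.281 and 0.363. Cnn2 differed by -0.24 (-0.59 to 0.10). Tpm1 went the other way, with 0.29 (-0.07 to 0.64), positive in both lines as deposited, after centring and after quantile normalization.

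By sign, 7 of the 10 genes were lower with antibody in both lines, 1 was higher in both, and 2, Myh11 and Lmod1, had opposite signs. Over all tested genes, 31.5% were lower in both lines and 40.1% had opposite signs. The median difference of the 10 genes was -0.48 log2 units beside -0.02 for all tested genes, and 6 of the 10 had an unadjusted p under 0.05 beside 11.6% of all genes. The median of the BLS12 array with antibody was 0.13 above that of unstimulated BLS12, and 0.02 above in BLS4. With each array centred on its median the difference of Lmod1 in BLS12 turned from 0.06 to -0.07, and the signs of the other 9 genes in both lines stayed as they were.

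**Figure D2:**
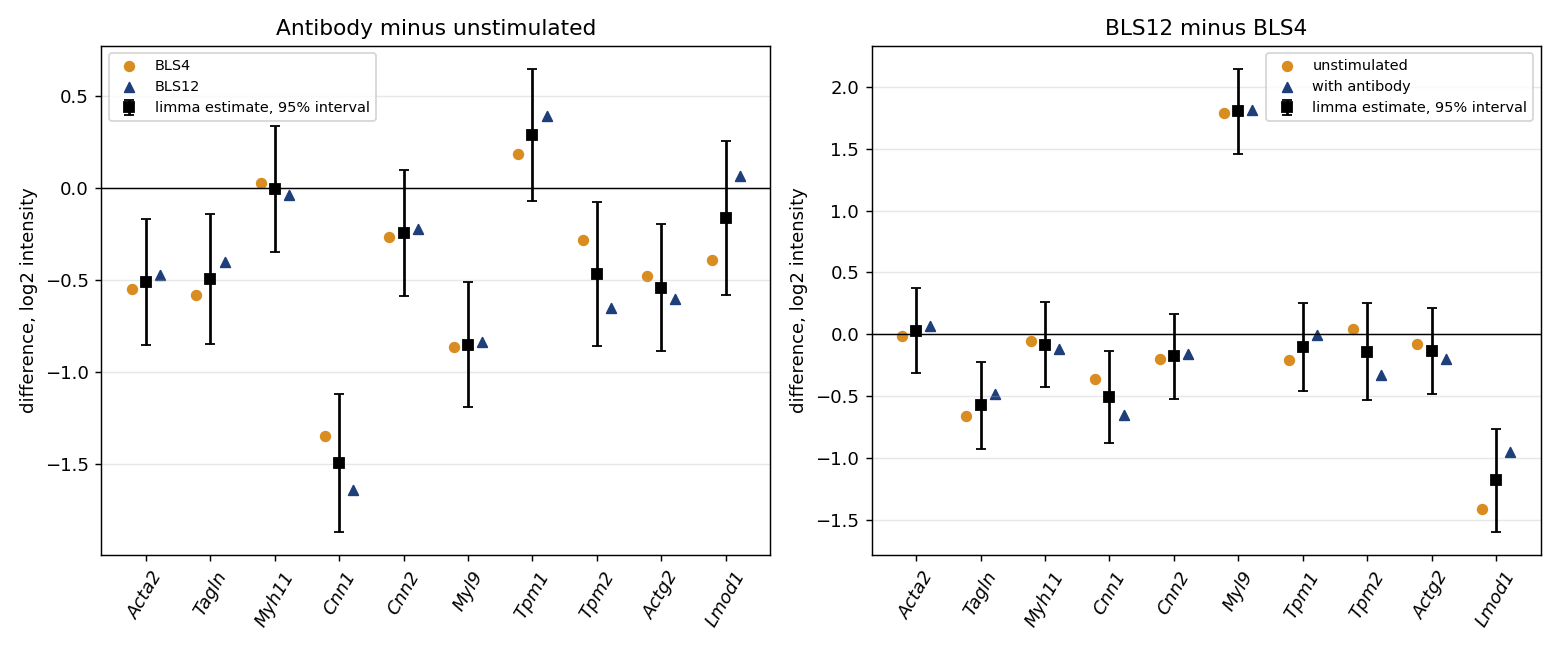
Differences in log2 intensity for the 10 genes: antibody minus unstimulated in BLS4 (circles) and BLS12 (triangles) on the left, BLS12 minus BLS4 without (circles) and with antibody (triangles) on the right, with the limma estimate and its 95% interval as black squares and bars. Cnn1 is the lowest on the left at -1.49, and Myl9 at 1.80 and Lmod1 at -1.18 stand apart on the right.

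The comparison of the lines described which of these genes set BLS4 and BLS12 apart. Myl9 was higher in BLS12 by 1.80 log2 units or 3.48-fold (SE 0.137, adjusted p = 0.00148, limma), by 1.79 in unstimulated cells and 1.81 with antibody. Lmod1 was higher in BLS4 by 2.26-fold, with an estimate for BLS12 over BLS4 of -1.18 log2 units (SE 0.168), -1.41 in unstimulated cells and -0.95 with antibody (limma adjusted p = 0.00854). Tagln was higher in BLS4 too, by 1.49-fold (-0.57, SE 0.142, adjusted p = 0.0387). These were 1 of 10 genes higher in BLS12, against 12.2% of all genes tested, and 2 of 10 higher in BLS4, against 11.4%, so the number called was close to the background.

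The remaining 7 genes did not pass between the lines. Cnn1 differed by -0.51 (95% interval -0.88 to -0.13, adjusted p = 0.063) and passed after quantile normalization (adjusted p = 0.0448). For Acta2 the estimate was 0.03 (-0.32 to 0.37), for Myh11 -0.08 (-0.43 to 0.26), for Actg2 -0.14 (-0.48 to 0.21), for Tpm1 -0.10 (-0.46 to 0.25), for Tpm2 -0.14 (-0.53 to 0.25) and for Cnn2 -0.18 (-0.52 to 0.17). Those intervals reach as far as -0.53 log2 units. Without the antibody term in the fit Lmod1 alone passed (adjusted p = 0.0267), while Myl9 had an adjusted p of 0.0558 and Tagln of 0.204.

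MEF had the highest level of 9 of the 10 genes, and the comparisons with it have 1 MEF array and no test. In LN stroma 5 genes were at least 4-fold lower than in MEF, where 2.93% of 12613 genes were, and 0 were 4-fold higher, where 4.64% were. Cnn1 was 16.6-fold lower, Actg2 11.8-fold, Tagln 5.70-fold, Tpm1 5.09-fold and Cnn2 5.01-fold. In LN stroma Cnn1 (6.15) and Actg2 (5.87) lay near the array median, 5.80, so their folds are approximate. Acta2 (3.93-fold) and Tpm2 (3.87-fold) lay just short of the 4-fold mark and passed it when arrays were centred on their medians, whereas Lmod1 (2.29-fold) and Myl9 (2.27-fold) differed less. After quantile normalization Acta2 (-1.88 log2 units) and Tpm2 (-1.81) stayed short of the mark. Myh11 ran against the other 9 genes, 3.80-fold higher in LN stroma. It passed 4-fold after quantile normalization, with 2.09 log2 units. The median difference of the 10 genes was -2.15 log2 units, beside -0.11 over all genes compared.

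In both unstimulated lines 3 genes were at least 4-fold lower than in MEF, against 1.14% of 12676 genes, and 0 were higher, against 0.308%. Actg2 was 8.58-fold lower in BLS4 and 9.04-fold in BLS12, Cnn1 4.99-fold and 6.40-fold, and Tagln 4.63-fold and 7.33-fold. Myl9 passed the mark in BLS4 (4.61-fold) and was 1.34-fold lower in BLS12. Lmod1 was 1.52-fold lower in BLS4 and 4.04-fold in BLS12. Cnn2 was closest to MEF, 1.24-fold and 1.42-fold lower, and Acta2 was 2.23-fold and 2.24-fold lower. These lines and LN stroma are compared with the same MEF array, so their differences from it are not independent of each other.

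Markers of other cell types were read beside the MEF levels. Of 6 myeloid markers, 6 reached the array median in MEF and 3 in LN stroma and on each line array, with summed intensities of 2040 in MEF, 526 in LN stroma and 632 to 1815 in the lines. Of 15 striated muscle markers 7 reached the median in MEF and 6 or 7 on the other arrays, with summed intensities of 841 in MEF and 738 to 840 elsewhere. Acta1, the skeletal muscle actin, was at 10.1 in MEF and at 6.83 to 7.19 on the other arrays. The part of these cells in the MEF levels was not tested. Cardiac actin and the smooth muscle actins resemble Acta1 closely in coding sequence, and how far the transcript clusters tell them apart was not tested.

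**Figure D3:**
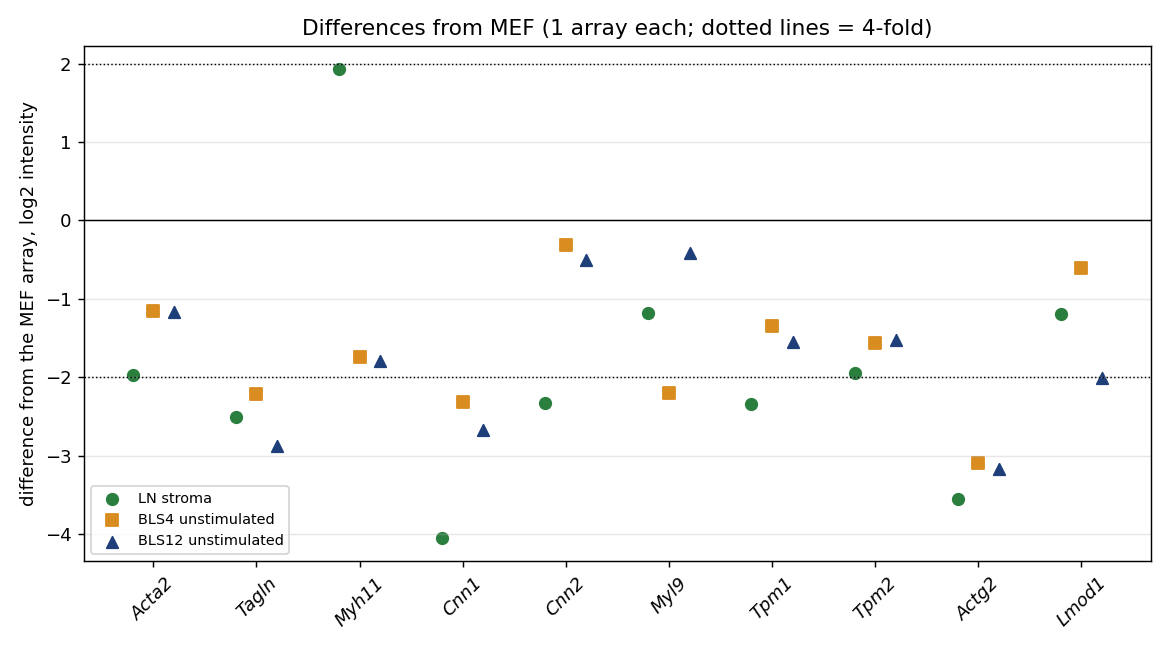
Difference of LN stroma (circles), unstimulated BLS4 (squares) and unstimulated BLS12 (triangles) from the single MEF array in log2 intensity for the 10 genes, with dotted lines at 4-fold. All points but that of Myh11 in LN stroma, at 1.93, lie below 0, and the lowest is Cnn1 in LN stroma at -4.05.

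LN stroma was also compared with the unstimulated lines, which come from the same organ. Myh11 was higher in LN stroma, 12.7-fold against BLS4 and 13.2-fold against BLS12. It was the 1 of 10 genes at least 4-fold higher, where 3.52% of 12827 genes were, and 0 of 10 were 4-fold lower in both lines, against 0.569%. The line levels of Myh11 lay at the array median, so the size is approximate. Cnn2 was 4.04-fold lower in LN stroma than in BLS4 and 3.52-fold lower than in BLS12, Cnn1 3.32-fold and 2.59-fold, Tpm1 2.01-fold and 1.74-fold, and Acta2 1.76-fold and 1.75-fold. Myl9 in LN stroma was 2.04-fold above BLS4 and 1.70-fold below BLS12. Against BLS4 alone 2 genes passed 4-fold, Myh11 as higher and Cnn2 as lower in LN stroma. The share over all genes was not taken for BLS4 alone.

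In the wider contractile list Des and Synpo2 were at least 4-fold higher in LN stroma than in MEF and than in both lines, whereas Myh11 was 3.80-fold above MEF. Des and Synpo2 were 2 of 35 genes past 4-fold above MEF, against 4.64% of all genes, and 24 of the 35 were lower in LN stroma by any amount. With the integrin subunit Itga8, 3 of 34 were at least 4-fold above both lines, against 3.52% of all genes. Itga8 lay 0.58 log2 units below MEF. Des, the intermediate filament desmin, was at 11.12 in LN stroma, 8.21 in MEF and 5.21 to 5.69 in the lines. Synpo2, an actin-bundling protein of smooth muscle, was at 9.36 in LN stroma, 6.20 in MEF and 5.25 to 6.06 in the lines. Des and Itga8 lay below the median of each line array and Synpo2 near or below it, so their folds against the lines are approximate. Of 10 pericyte markers, 9 reached the array median in LN stroma, 7 in MEF, 7 in BLS4 and 4 in BLS12, and the summed intensity was 13513 in LN stroma, 3630 in MEF and 1090 to 4286 in the lines. Of 9 compared with MEF, 5 were at least 4-fold higher in LN stroma, against 4.64% of all genes. Another 2 were at least 4-fold lower, against 2.93%. Abcc9 and Kcnj8, which form a potassium channel of pericytes, were at 12.18 and 10.08 in LN stroma and at 5.13 to 6.20 on all other arrays, and Rgs5, a regulator of G protein signalling, was at 11.3 in LN stroma. Higd1b, another pericyte marker, was at 4.32, below the median there. Mcam and Cspg4, also in that list, were instead highest in MEF, at 10.53 and 8.27. Pdgfrb, a further marker of the list, did not set LN stroma apart from BLS4. It was at 11.62 in LN stroma, 11.87 in BLS4, 11.41 in BLS4 with antibody, 9.43 in BLS12, 10.04 in BLS12 with antibody and 10.32 in MEF. Pdgfrb was the largest single part of the summed intensity on every line array. The part of pericytes in the Myh11 level was not tested.

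**Figure D4:**
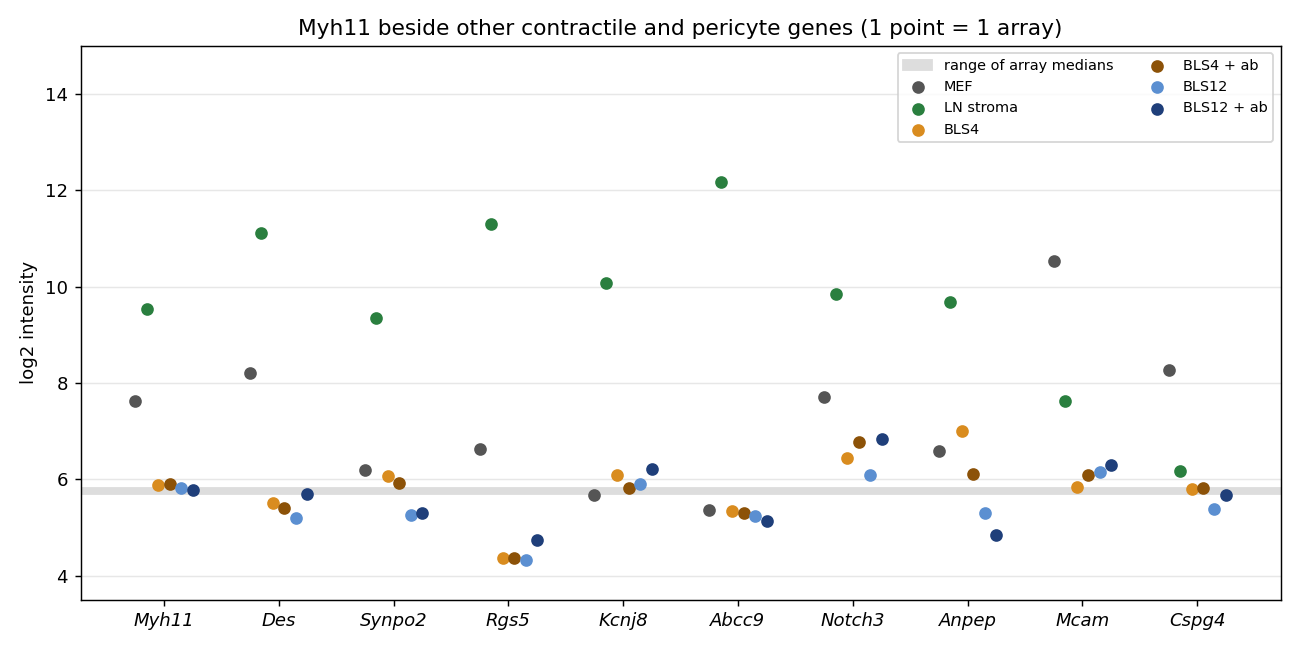
Log2 intensity of Myh11, of desmin (Des) and Synpo2, and of the 7 pericyte markers at least 4-fold apart between LN stroma and MEF, 1 point per array, with the range of array medians in grey. Of these markers 5 were higher in LN stroma and 2 in MEF. LN stroma is highest for Myh11 (9.54), Des (11.12) and Abcc9 (12.18), and MEF for Mcam (10.53) and Cspg4 (8.27).

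Paralogues of the 10 genes, from non-muscle and striated muscle cells, showed no call with antibody. Of 20 chosen, 19 had an entry and 16 were tested in the lines: 0 passed in limma, 3 had an unadjusted p under 0.05, and the median difference was -0.06. Over all genes tested 0.2% passed higher and 0.0751% lower, so 0 of 16 is close to the background. An unadjusted p under 0.05 was found for 11.6% of all genes, whose median difference was -0.02. Tagln2, a transgelin of non-muscle cells, had 1.75 in BLS4 and 0.27 in BLS12 (estimate 1.01, adjusted p = 0.363). The third calponin, Cnn3, had -0.40 (adjusted p = 0.374), and the non-muscle myosin heavy chain Myh10 -0.45 (adjusted p = 0.356). Actb, the cytoskeletal actin, had -0.03 with antibody and was 0.54 lower in LN stroma than in MEF on the log2 scale. Between the lines Myh10 was higher in BLS12 by 0.65 (adjusted p = 0.0314), and Cnn3 (-0.52), the heavy chain Myh9 (-0.55) and the filament cap Tmod3 (-0.58) were higher in BLS4. These were 1 of 16 higher in BLS12, against 12.2% of all genes tested, and 3 of 16 higher in BLS4, against 11.4%. Against MEF, Acta1 was the 1 paralogue at least 4-fold lower, in LN stroma (-3.24) and in both lines (-3.09 and -2.87). Over all genes compared 2.93% and 1.14% were.

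Upstream regulators showed no call with antibody in limma, 0 of 13 tested (15 chosen, 14 with an entry) and 0 at an unadjusted p under 0.05, with a median of -0.14. Over all genes tested 0.2% passed higher and 0.0751% lower, 11.6% had an unadjusted p under 0.05, and the median was -0.02. Srf, the serum response factor itself, differed by 0.04 with antibody (adjusted p = 0.951) and by 0.03 between the lines. Its cofactors Mrtfa and Mrtfb, formerly Mkl1 and Mkl2, differed by -0.04 and 0.01 with antibody. Myocd, the cofactor of smooth muscle, lay at 4.47 to 4.95 on the 6 arrays, below the median of each array, and was not tested in the lines. Between the lines the TGF-β receptors Tgfbr1 (-0.97, limma adjusted p = 0.0117) and Tgfbr2 (-0.68, adjusted p = 0.0262) and the Ets factor Elk1 (-1.01, adjusted p = 0.00802) were higher in BLS4. These were 3 of 13 higher in BLS4, against 11.4% of all genes tested, and 0 of 13 were higher in BLS12, against 12.2%. Klf4, known as a repressor of smooth muscle genes, was at least 4-fold higher in LN stroma than in MEF and in both lines, by 2.80, 2.65 and 2.64 log2 units, and the TEAD factor Tead1 was 2.04 lower in LN stroma than in MEF on that scale.

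Other genes of contraction and of actin adhesion sites numbered 36, of which 35 had an entry and 32 were tested in the lines. With antibody 1 fell, Cav1, the main coat protein of caveolae (by 1.82, SE 0.19, adjusted p = 0.0456), and 0 rose, against 0.0751% and 0.2% of all genes tested. Of the 32, 24 were negative, with a median of -0.16, beside 53.45% negative and a median of -0.02 over all genes tested. An unadjusted p under 0.05 in limma was found for 11 of the 32, beside 11.6% of all genes tested. Csrp2, a LIM protein of smooth muscle, was at least 2-fold lower in both lines (estimate -1.69, adjusted p = 0.130), and Fhl1 differed by -1.02 (adjusted p = 0.0992). Ppp1r12b, a subunit that directs the myosin phosphatase, had 0.89 (adjusted p = 0.0957).

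Between the lines 7 of those 32 were higher in BLS12, against 12.2% of all genes tested, and 6 in BLS4, against 11.4%. Mylk, the kinase that phosphorylates Myl9, was higher in BLS12 by 1.92 log2 units (adjusted p = 0.00117), as was the integrin subunit Itga7 by 3.26 (adjusted p = 0.000629), Csrp2 by 2.15, Fhl1 by 1.52, the actin-binding smoothelin Smtn by 0.77 and the LIM protein Csrp1 by 0.69. Ppp1r12a, the phosphatase subunit that opposes Mylk, was higher in BLS12 by 0.85 (adjusted p = 0.0121). Fhl2 (-3.02, adjusted p = 0.000491), the secreted matricellular Ccn2 (-2.48, adjusted p = 0.00168), Itga5 (-1.15), Flna (-0.89), Synpo2 (-0.72) and Actn4 (-0.55) were higher in BLS4. Synpo2 lay below the array medians in BLS12, at 5.25 unstimulated and 5.30 with antibody, so the size of its difference is approximate. From MEF to LN stroma the median of the 35 was -1.14, with Ccn2 (-2.59) and Actn1 (-2.10) at least 4-fold lower and Synpo2 (3.16) and Des (2.91) at least 4-fold higher. These were 2 of 35 in each direction, against 2.93% lower and 4.64% higher over all genes compared. Both lines were at least 4-fold below MEF for Des (-2.70 in BLS4 and -3.01 in BLS12) and for the integrin subunit Itga8 (-3.52 and -4.18), 2 of 35 against 1.14% of all genes.

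Across the 6 arrays the 36 pairs among the 9 genes other than Myh11 had a median Pearson's r of 0.73 (range -0.01 to 0.99), and the 9 pairs with Myh11 a median of 0.18 (-0.72 to 0.36). These are descriptions over 6 arrays, of which 4 come from 2 lines and 1, MEF, is highest for 9 genes. The same measure was taken for 1866 genes with a range of at least 2 log2 units and at least 1 array at or above its median. Highest in r with the average of the 10 were Cdo1 (0.998), Sox2 (0.993), Sfn (0.989), Hpgds (0.987) and Ereg (0.985), and 53 genes reached 0.95. Sox2 (6.95 in MEF, 4.14 to 4.61 elsewhere) and Hpgds (5.83, and 3.81 to 4.17) reached the array median in MEF alone. Their r thus describes 1 high MEF array against values below the median. Most like Acta2 were Plaur (0.966) and Nexn (0.957), which encodes the actin-binding protein nexilin, followed by Ereg (0.955), 1700007K13Rik (0.945) and Tnc (0.936). Most like Cnn1 were Ereg (0.945), the matrix protein tenascin C (Tnc, 0.937), Cdo1 (0.934), Crabp2 (0.933) and Sox2 (0.924), and 0 genes reached 0.95. All of these genes were highest in MEF.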

How the data were processed

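Total RNA was hybridised to 6 Affymetrix arrays of 1 colour. The deposited values were linear intensities per transcript cluster, made with Affymetrix Expression Console 1.1 per the submitters' processing notes; the summary method, normalization and genome build are not given in the sources used here. Intensities ran from 3.55 to 24064, and log2 was taken without a floor. Array data carry no counts, so the number of arrays limits the precision. Of 35557 entries, 21789 named 1 gene, 1621 several and 12147 none in the platform annotation. The brightest entry per gene was used for 19938 genes, and all 10 contractile genes were matched by Entrez ID.

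Antibody and line effects came from 1 additive model of line and antibody over the 4 line arrays in limma 3.58.1 (R 4.3.3, two-sided), with Benjamini-Hochberg adjustment over the 11988 genes at or above the array median on at least 2 of the 4 arrays and a threshold of 0.05. Same-line arrays are paired by the labelled line, and line is the block. The model had 1 residual and 4.59 prior degrees of freedom. Comparisons with MEF or LN stroma have 1 array a group and no test: 4-fold, in both lines where lines took part, among genes with at least 1 array at its median. Alternatives were median centring, quantile normalization, the mean of entries, no filter, a floor of 32, no block, each array left out, and 2-fold.

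The genes and lists were chosen with earlier results of these data known. Named were all 10 genes and list genes past a threshold or among the 6 largest differences. Srf, Myocd, Mrtfa and Mrtfb were named in any case, as were the 5 genes most like a profile by Pearson's r. Des, Synpo2 and the other markers beside Myh11 follow from the 4-fold mark. Actb, Higd1b and Pdgfrb were chosen after their values were seen. Some list genes were not analysed here.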

Additional observations from a re-analysis of the deposited data

Results flagged for a closer look

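The antibody differences of 2 genes had opposite signs in the 2 lines, with 1 array per line and condition. Lmod1 differed by -0.39 log2 units in BLS4 and by 0.06 in BLS12. Myh11 differed by 0.02 in BLS4 and by -0.04 in BLS12. The difference between the lines was not tested in either case. Opposite signs occurred in 40.1% of all 11988 genes tested, and the sign of Lmod1 in BLS12 turned after median centring.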

How the results depend on the processing

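With antibody, Cnn1 passed as deposited, after median centring, with entries averaged, without the filter and with a floor of 32, with adjusted p of 0.0112 to 0.0445; 0 of the 10 genes passed in limma after quantile normalization (6 at an unadjusted p under 0.05) and 0 with no replicate block (3 unadjusted), where the difference of Cnn1 is -1.49 by construction with an adjusted p of 1, and where 0 of all 11988 genes passed (241 unadjusted). In all, 98 genes passed after centring, 54 without the filter and 6 after quantile normalization, beside 33 as deposited. Between the lines 3 of the 10 genes passed and 1 without the antibody term (1428 genes in all beside 2835). The difference of Acta2 between the lines turned to -0.0938 after quantile normalization. At 2-fold, in either direction, 10 genes were apart between LN stroma and MEF and 7 between lines and MEF. Between LN stroma and lines 3 were apart. At 4-fold these numbers were 5, 3 and 1. Of the 10 genes, Myh11 was higher in LN stroma than in MEF and 9 were lower. After centring 7 passed 4-fold between LN stroma and MEF, and 6 after quantile normalization, where Myh11 passed as higher in LN stroma. Shares over all genes were not taken at 2-fold, with a line left out, or at 4-fold after centring or quantile normalization. The counts there have no background beside them. Leaving out either line gave 4 genes apart from MEF; between LN stroma and the lines 2 genes were apart without BLS12 and 1 without BLS4; at 2-fold with antibody there was 1 without either. Leaving out 1 line array leaves no residual degree of freedom for limma, so no count of calls exists there; the antibody difference of Cnn1 was then -1.35 to -1.64. With 1 MEF and 1 LN stroma array their own spread is unknown. Levels near or below the array medians give approximate folds. Among these were Actg2, Myh11, Lmod1, Des, Itga8 and Synpo2 in lines, Actg2 and Cnn1 in LN stroma, and Cnn1 in BLS12 with antibody.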
